A study of Mus musculus with 18 samples.

Results

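The junction partners described here are 9 genes whose proteins build the tight and adherens junctions of epithelial cells beside the claudins. They were listed by gene symbol, with earlier results of these data known, as Tjp1, Tjp3, Cgn, Ocln, Marveld2, Marveld3, F11r, Cdh1 and Ctnnb1, and all 9 were found among the 47729 genes of the count table. Tight junctions seal the space between neighbouring epithelial cells and set which ions, water and solutes pass between them. Claudins form the strands, occludin and the related MARVEL proteins sit in the same membrane, and scaffold proteins such as ZO-1 tie the strands to actin. Adherens junctions lie just below, where E-cadherin holds cells together and binds β-catenin, which is also the transcriptional partner of TCF and LEF factors in Wnt signalling.

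RNA-Seq was carried out on the colon of 9 mice on a C57BL/6 background, in 3 groups of 3. The naive WT mice (mice 1 to 3) carried the label for control. The WT CAC mice (mice 4 to 6) and the Cldn2TG CAC mice (mice 7 to 9) had received azoxymethane (AOM, 10 mg/kg, 1 injection), a colon carcinogen, followed by 3 cycles of 2.5% dextran sulfate sodium (DSS), which injures the colonic epithelium, and are a model of colitis-associated cancer (CAC). The Cldn2TG mice express claudin-2, a claudin that forms a cation and water pore, from a transgene driven by the villin promoter, which is active in intestinal epithelial cells. Transgenic and WT mice were bred as littermates. A naive Cldn2TG group was not analysed here, so an effect of the transgene cannot be told apart from its effect under AOM/DSS. The treatment text attached to the naive samples names AOM and DSS too, whereas their treatment label does not, and the label was followed. Ages are not given in the sources used here. Unless stated otherwise, p-values measure the spread between the 6 mice of the 2 groups compared.

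Each library held between 14142711 and 22262546 counts on genes. Gene counts were compared between lanes by a chi-square, which was 0.995 to 1.06 per degree of freedom and highest in mouse 6. Whether the values above 1 exceed sampling noise was not tested. In depth, lane 1 held 10119239, 9143133 and 10060059 counts in mice 6, 7 and 9. Lane 2 held 4023472, 5757674 and 4811928 counts in these mice. For each mouse, both lanes were added up as 1 sample. Levels are given in CPM, counts per 1000000 counts of the library after scaling. Mouse 1 had 214 CPM of Xist and the other 8 mice at most 0.204 CPM, so a female mouse stood in the naive group only. Cldn2, the gene of the transgene, was at 191, 258 and 243 CPM in naive WT mice 1, 2 and 3. It was at 122, 136 and 134 CPM in WT CAC mice 4, 5 and 6. In Cldn2TG CAC mice 7, 8 and 9 Cldn2 was at 209, 217 and 249 CPM. It was lower in WT CAC than in naive WT colon (log2 fold change -0.82, SE 0.14, adjusted p = 0.0138) and higher in Cldn2TG CAC than in WT CAC colon (0.78, SE 0.12, adjusted p = 0.0103), and it differed by -0.03 between Cldn2TG CAC and naive WT colon (adjusted p = 0.897). The first call was lost without mouse 2 (adjusted p = 0.0635) or mouse 3 (0.0554), and the second without mouse 8 (0.0580) or mouse 9 (0.0597). The 12 epithelial markers summed to 25229 to 33038 CPM in every library, so epithelial RNA was present in all of them.

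The genomic place of the members shows a pair of neighbours. Ocln (chr13:100496507-100552718, minus strand, GRCm38) and Marveld2 (chr13:100595957-100616971, minus strand), which encode occludin and tricellulin, lie 43238 bases apart on the same strand. Promoter windows of 300 bases, reaching from 250 bases before a start site to 50 bases from it, were found in RefSeq (GRCm38.p6) for 7 of the 9 members in 11 windows. The E-box CACCTG, or CAGGTG on the other strand, is read by SNAIL and ZEB factors, and it is shown here because Ocln is the member that passed the test between the groups. It stood in 7 of the 11 windows, which belong to Ocln, Marveld2, F11r and Tjp3 and of which those of Ocln and of Marveld2 overlap each other, and in 20.2% of all 32851 windows of this length, counted on both strands. The motif AACCGGTT of grainyhead-like factors stood in no window of a member and in 0.146% of all windows. With positions counted from 0 at the start site in the direction of the gene, the Ocln window below (chr13:100552449-100552748, minus strand) holds CAGGTG at -213 and -68, and the Marveld2 window (chr13:100616922-100617221, minus strand) holds it at 43. Capitals mark these letters, and a match of letters does not show that a factor binds there.
Ocln: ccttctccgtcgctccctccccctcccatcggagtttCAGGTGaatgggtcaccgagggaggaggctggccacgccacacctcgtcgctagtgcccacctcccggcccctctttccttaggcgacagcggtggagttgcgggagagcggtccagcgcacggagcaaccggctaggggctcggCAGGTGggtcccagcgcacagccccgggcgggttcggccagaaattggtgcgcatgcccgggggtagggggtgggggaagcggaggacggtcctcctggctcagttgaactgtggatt
Marveld2: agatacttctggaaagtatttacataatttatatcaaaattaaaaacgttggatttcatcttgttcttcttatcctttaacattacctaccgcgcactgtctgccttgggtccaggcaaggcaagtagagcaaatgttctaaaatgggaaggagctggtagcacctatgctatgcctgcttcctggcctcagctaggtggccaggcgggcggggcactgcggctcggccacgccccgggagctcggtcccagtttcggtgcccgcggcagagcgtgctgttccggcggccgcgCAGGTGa

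Among the 9 genes, Ocln was the member that passed the test. Ocln fell in WT CAC colon and was higher in Cldn2TG CAC than in WT CAC colon, back within the range of the naive mice or above it. None of the other 8 members passed the test in any comparison. In WT CAC against naive WT colon, 1 of the 9 members was called at an adjusted p under 0.05 (edgeR's quasi-likelihood test, Benjamini-Hochberg over all genes tested), where 15% of all 15437 genes tested were called, 8.04% higher and 6.92% lower. In Cldn2TG CAC against WT CAC colon, 1 of 9 was called against 9.54% of 14888 genes, 2.19% higher and 7.35% lower. In Cldn2TG CAC against naive WT colon, 0 of 9 were called against 10% of 15013 genes, 3.92% higher and 6.07% lower, and with library size alone as the scaling the share of called genes that were higher was 17.4% in place of 39.2%, where that of Cldn2TG CAC against WT CAC colon was 14.4% in place of 22.9%. No member had an unadjusted p under 0.05 in that last comparison, and DESeq2 and limma voom also called 0. These shares of called members are near those of all genes. All 9 members passed the filter on low counts in every comparison. Because the 3 comparisons draw on the same 3 groups, they are not independent of each other, and both called differences of Ocln rest on the same WT CAC mice.

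**Figure D1:**
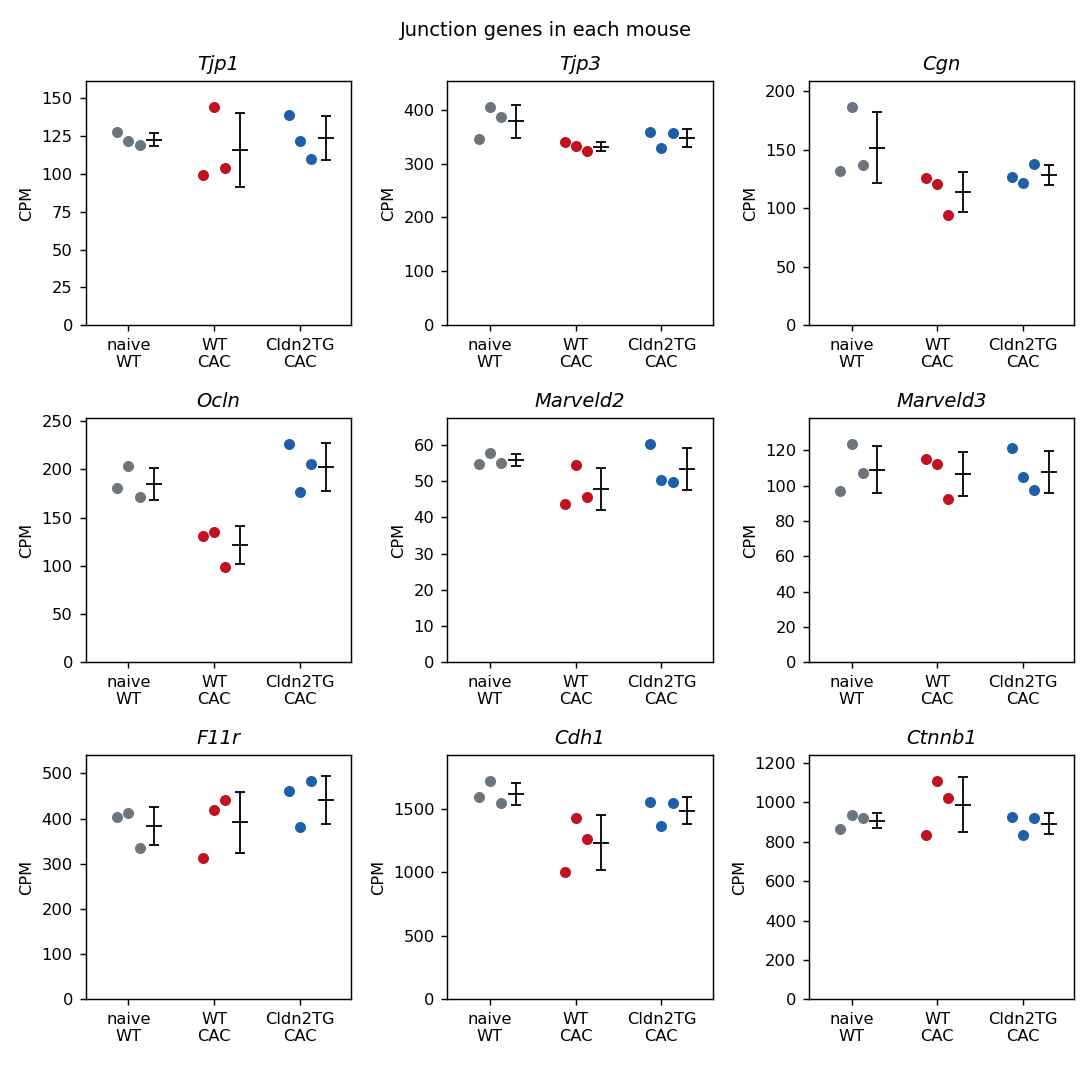
CPM (y axis, from 0) of the 9 junction genes in each of 9 mice (points), with the mean and SD (n = 3) of each group beside them. Ocln lies between 99.0 and 135 CPM in the WT CAC mice and between 171 and 226 CPM in the other 6, while the groups of Tjp1, Marveld3, F11r and Ctnnb1 overlap throughout.

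Ocln encodes occludin, a membrane protein with 4 spans that joins the tight junction strands. Its level was 180, 203 and 171 CPM in naive WT mice 1, 2 and 3, 131, 135 and 99.0 CPM in WT CAC mice 4, 5 and 6, and 226, 176 and 206 CPM in Cldn2TG CAC mice 7, 8 and 9. Every WT CAC mouse was below every other mouse, and the naive WT and Cldn2TG CAC mice overlapped. The group means were 185 ± 16.7 CPM in naive WT, 122 ± 19.9 CPM in WT CAC and 203 ± 25.0 CPM in Cldn2TG CAC colon (SD, n = 3 each).

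From naive WT to WT CAC colon, Ocln fell by 33.8%, a log2 fold change of -0.60 (SE 0.14, 95% interval -0.93 to -0.26, adjusted p = 0.0330). From WT CAC to Cldn2TG CAC colon it was 1.66-fold higher, a log2 fold change of 0.73 (SE 0.16, 95% interval 0.37 to 1.1, adjusted p = 0.0259). Between Cldn2TG CAC and naive WT colon the log2 difference was 0.14, with a 95% interval from -0.11 to 0.39 (adjusted p = 0.468). A two-sided exact permutation test over mice gave p = 0.1 for each of the first 2 comparisons, which is the smallest p that 3 against 3 mice allow.

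The direction of both Ocln differences held in all 16 alternatives of each, and the calls held in all 10 that kept every mouse, with adjusted p between 0.00346 and 0.0365 for the first and between 0.000961 and 0.0347 for the second. Leaving out single mice ended the call more often than not. For WT CAC against naive WT the adjusted p was 0.0881 without mouse 1, 0.124 without mouse 2, 0.0809 without mouse 3 and 0.0681 without mouse 6, and the log2 fold changes on leaving out any of the 6 mice ran from -0.68 to -0.47. For Cldn2TG CAC against WT CAC it was 0.0520 without mouse 5, 0.0586 without mouse 6, 0.0904 without mouse 7, 0.0703 without mouse 8 and 0.102 without mouse 9. Its log2 fold changes ran from 0.62 to 0.83. These fits have 5 mice in place of 6.

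The MARVEL relatives of occludin did not pass the test. Marveld2 encodes tricellulin, which sits where 3 cells meet. Its level was 54.7, 57.7 and 55.2 CPM in naive WT, 43.7, 54.4 and 45.6 CPM in WT CAC and 60.2, 50.3 and 49.8 CPM in Cldn2TG CAC colon. The WT CAC mice were all below the naive mice, mouse 5 by a margin smaller than 1 CPM, and the log2 fold change was -0.21 (SE 0.12, adjusted p = 0.252). Against WT CAC the Cldn2TG CAC value was 0.15 higher on the log2 scale (SE 0.14, adjusted p = 0.607), with overlapping mice.

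Marveld3, the third MARVEL protein of tight junctions, was at 96.9, 123 and 107 CPM in naive WT, 115, 112 and 92.4 CPM in WT CAC and 121, 105 and 97.7 CPM in Cldn2TG CAC colon. Its groups overlapped in every comparison, and its log2 fold changes were -0.03, 0.01 and -0.01 (SE 0.13, 0.14 and 0.12). The 95% intervals of these 3 differences lay within -0.34 and 0.33, so a change of Marveld3 as large as that of Ocln was outside them. The signs of such small values turned with the scaling and with the mice left out.

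The scaffold genes under the membrane were Tjp1, Tjp3 and Cgn, which encode ZO-1, ZO-3 and cingulin. Tjp1 was at 127, 122 and 119 CPM in naive WT, 99.5, 144 and 104 CPM in WT CAC and 139, 122 and 110 CPM in Cldn2TG CAC colon. Its spread was widest among the WT CAC mice, with an SD of 24.6 CPM against 4.32 CPM in the naive mice, and its log2 fold changes of -0.07, 0.09 and 0.02 had adjusted p of 0.777, 0.839 and 0.937 and signs that turned with the mice left out. Tjp3 was at 345, 405 and 386 CPM in naive WT, 340, 333 and 323 CPM in WT CAC and 359, 329 and 357 CPM in Cldn2TG CAC colon. The WT CAC mice lay just below the naive mice without overlap, at a log2 difference of -0.18 (SE 0.11, adjusted p = 0.282), and Tjp3 varied the least of the 9 genes, with an SD of 0.11 in log2 CPM over the 9 mice.

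Cingulin, which links ZO proteins to the actomyosin ring, had the second widest spread. Cgn was at 131, 186 and 137 CPM in naive WT, 126, 121 and 94.2 CPM in WT CAC and 127, 121 and 138 CPM in Cldn2TG CAC colon. Each WT CAC mouse was below each naive mouse, and the naive mean of 152 ± 30.1 CPM (SD, n = 3) was carried up by mouse 2. The log2 fold change was -0.41 (SE 0.17, 95% interval -0.80 to -0.02, adjusted p = 0.139) from naive WT to WT CAC, 0.18 (SE 0.14, adjusted p = 0.544) from WT CAC to Cldn2TG CAC, and -0.23 (SE 0.13, adjusted p = 0.298) between Cldn2TG CAC and naive WT colon. Single mice moved these values, to -0.24 and -0.06 for the first and the last without mouse 2, and to 0.07 for the second without mouse 6.

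F11r encodes JAM-A, an immunoglobulin-type adhesion protein of the tight junction. It was at 404, 413 and 335 CPM in naive WT, 313, 420 and 441 CPM in WT CAC and 460, 382 and 482 CPM in Cldn2TG CAC colon. The groups overlapped in all 3 comparisons, the log2 fold changes were 0.03, 0.17 and 0.21 (SE 0.16, 0.17 and 0.12), and none passed the test.

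Cdh1, which encodes E-cadherin, had the most counts of the 9 genes. It was at 1590, 1714 and 1543 CPM in naive WT, 1001, 1430 and 1262 CPM in WT CAC and 1552, 1361 and 1541 CPM in Cldn2TG CAC colon. All WT CAC mice were below the naive mice, with mouse 4 lowest, and the Cldn2TG CAC mice overlapped with both other groups. The log2 fold change of -0.38 from naive WT to WT CAC (SE 0.16, 95% interval -0.75 to -0.02) had an adjusted p of 0.132, and that of 0.27 from WT CAC to Cldn2TG CAC (SE 0.16, 95% interval -0.10 to 0.64) had an adjusted p of 0.388. Without mouse 4 they were -0.25 and 0.14.

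Ctnnb1, which encodes β-catenin, was at 865, 937 and 919 CPM in naive WT, 835, 1107 and 1025 CPM in WT CAC and 925, 833 and 921 CPM in Cldn2TG CAC colon. Mice 5 and 6 were the highest of all 9 and mouse 4 was among the lowest, so the groups overlapped. The log2 fold changes were 0.13 (SE 0.14, adjusted p = 0.548), -0.15 (SE 0.15, adjusted p = 0.631) and -0.02 (SE 0.09, adjusted p = 0.935). In 240 bases its exons overlap those of Ulk4 on the other strand, which had 5 to 32 counts in a library against at least 12585 for Ctnnb1.

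Counted by the separation of mice alone, 5 of the 9 members had no overlap between WT CAC and naive WT mice, all lower in WT CAC (Tjp3, Ocln, Marveld2, Cgn and Cdh1), where 38% of all genes tested did not overlap, 18.9% higher and 19.2% lower. Between Cldn2TG CAC and WT CAC mice only Ocln did not overlap among the 9, against 28% of all genes, 12.8% higher and 15.2% lower. Between Cldn2TG CAC and naive WT mice 0 of 9 were apart, against 31.4% of all genes, 15% higher and 16.4% lower. The median log2 fold change of the 9 members was -0.18, 0.15 and -0.02 in the 3 comparisons in this order, beside 0.02, 0.01 and 0.00 for all genes tested. The members with an unadjusted p under 0.05 were Ocln, Cgn and Cdh1 in the first comparison and Ocln in the second.

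**Figure D2:**
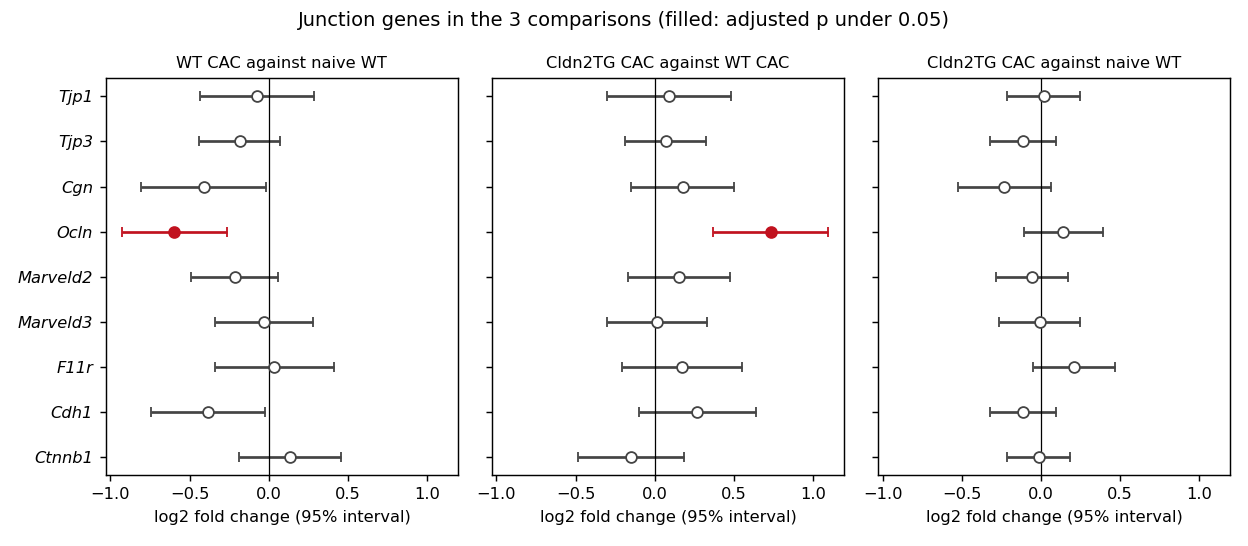
Log2 fold changes (x axis) of the 9 junction genes with 95% intervals in the 3 comparisons, from edgeR's quasi-likelihood fit on 6 mice each, with genes at an adjusted p under 0.05 filled. Ocln is filled at -0.60 for WT CAC against naive WT and at 0.73 for Cldn2TG CAC against WT CAC, and no gene is filled for Cldn2TG CAC against naive WT.

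Scaled to the length of their exons, the members spanned a wide range of levels. In naive WT colon Cdh1 was highest at 353 ± 19.3 CPM per kb, followed by Ctnnb1 at 178 ± 7.30, F11r at 144 ± 15.9 and Tjp3 at 125 ± 10.1 CPM per kb (SD, n = 3). F11r and Tjp3 did not differ beyond their spread in that order. Ocln followed at 43.8 ± 3.97, Marveld3 at 33.2 ± 4.09 and Cgn at 25.2 ± 5.0 CPM per kb, of which Marveld3 and Cgn overlapped. Marveld2 at 16.5 ± 0.487 and Tjp1 at 15.7 ± 0.553 CPM per kb were the lowest and overlapped as well.

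The order of levels differed between the groups at Ocln. In WT CAC colon Ocln, at 28.8 ± 4.70 CPM per kb, no longer stood above Marveld3, at 32.5 ± 3.79 CPM per kb, and the mice of the pair overlapped. In Cldn2TG CAC colon Ocln was at 48.0 ± 5.93 and Marveld3 at 32.9 ± 3.65 CPM per kb, and every mouse had more Ocln than any had Marveld3. Cdh1, Ctnnb1, F11r and Tjp3 were the highest 4 in all groups, with Ctnnb1 and F11r overlapping in both CAC groups.

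Ratios of 2 members within a library do not depend on how libraries are scaled. The ratio of Ctnnb1 to Cdh1 counts was 0.544, 0.547 and 0.596 in naive WT mice, 0.834, 0.774 and 0.812 in WT CAC mice and 0.596, 0.612 and 0.598 in Cldn2TG CAC mice. It was higher in each WT CAC mouse than in any other mouse, and the groups did not overlap in any of the 3 comparisons, although naive mouse 3 and Cldn2TG CAC mouse 7 nearly met. As log2 ratios the group means were -0.83 ± 0.07, -0.31 ± 0.05 and -0.73 ± 0.02 (SD, n = 3), so that the difference of 0.52 between WT CAC and naive WT mice and that of -0.42 between Cldn2TG CAC and WT CAC mice were each several times the SD within a group. Mouse 4 had the lowest Cdh1 and the lowest Ctnnb1 of the WT CAC mice, and its ratio still lay with those of mice 5 and 6.

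The ratios of the MARVEL genes to Ocln set the WT CAC mice apart as well. Both hold Ocln, the called member, so they are not separate from its differences given above. Marveld3 counts were 0.538, 0.607 and 0.626 times the Ocln counts in naive WT mice, 0.880, 0.828 and 0.933 times in WT CAC mice and 0.536, 0.596 and 0.474 times in Cldn2TG CAC mice. The WT CAC mice stood above all others, at a log2 difference of 0.58 from naive WT, and the Cldn2TG CAC mice differed from them by -0.72. The ratio of Marveld2 to its chromosomal neighbour Ocln differed by 0.38 and by -0.58 on the log2 scale in the same comparisons, again without overlap.

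Neither Tjp3 to Tjp1 nor Cgn to Tjp1 separated the groups in any comparison. Of the 5 ratios, 3, 3 and 1 did not overlap in WT CAC against naive WT, Cldn2TG CAC against WT CAC and Cldn2TG CAC against naive WT mice. Two-sided exact permutation tests gave p = 0.1 for each of these 7, the smallest that 3 against 3 mice allow, and an adjusted p of 0.214 over the 15 tests, so none could pass a threshold of 0.05. How often ratios of other gene pairs separate these groups was not computed, so these counts have no background share beside them. With the reads of lane 1 alone the ratio of Ctnnb1 to Cdh1 no longer separated the Cldn2TG CAC from the naive WT mice, and with lane 2 alone that of Marveld2 to Ocln did too.

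**Figure D3:**
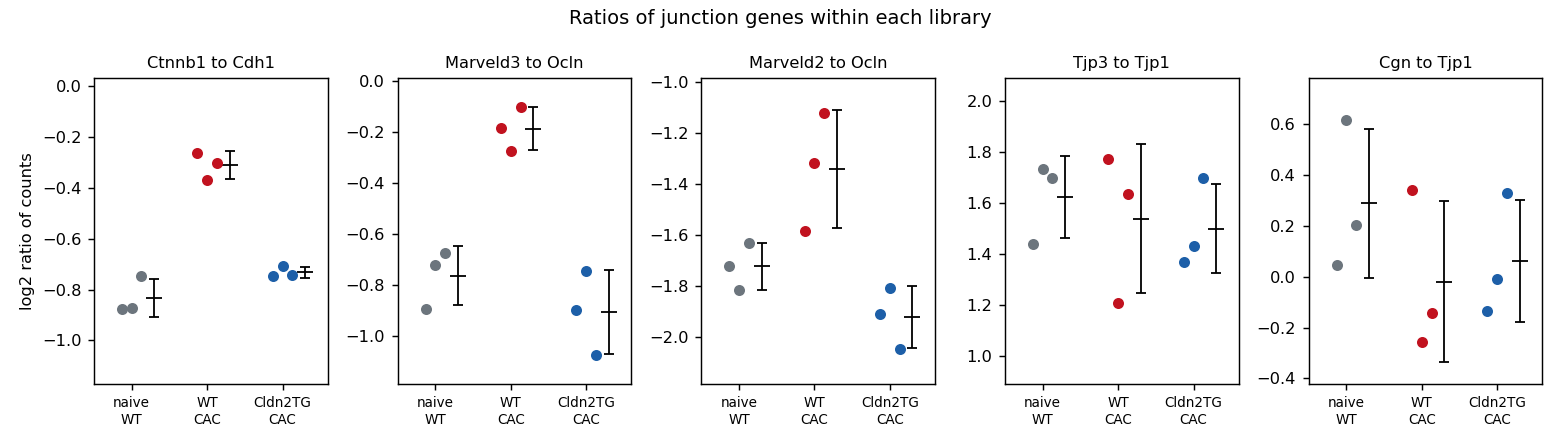
Log2 ratios of counts (y axis, all panels with the same span) for 5 pairs of junction genes in each of 9 mice (points), with the mean and SD (n = 3) of each group. The WT CAC mice lie above all others in the first 3 panels, with Ctnnb1 to Cdh1 at -0.37 to -0.26 against -0.88 to -0.71 in the other 6 mice, and the groups overlap in the last 2 panels.

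In bulk RNA, fewer epithelial cells and less RNA per cell cannot be told apart, so the members were also set against the 12 epithelial markers of the same library (Epcam, Krt8, Vil1 and others). Relative to the mean log2 level of these markers, Ocln differed by -0.55 between WT CAC and naive WT mice and by 0.58 between Cldn2TG CAC and WT CAC mice, without overlap in either case. Cgn differed by -0.35 between WT CAC and naive WT mice without overlap. Cdh1, at -0.34, and the other 6 members overlapped in that comparison, all members but Ocln overlapped in Cldn2TG CAC against WT CAC mice, and all 9 overlapped in Cldn2TG CAC against naive WT mice. No exact permutation test of these differences could go below p = 0.1, and the lowest adjusted p over the 9 members was 0.45. With Epcam as the only reference, 6, 3 and 4 members did not overlap in the 3 comparisons. The share of all genes that do not overlap on either of these relative scales was not computed, so these counts have no background beside them.

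Other cell types moved with the groups as well. The summed markers of leukocytes were 25.1 to 59.8 CPM in naive WT, 98.5 to 190 CPM in WT CAC and 25.5 to 36.4 CPM in Cldn2TG CAC mice, and those of fibroblasts were 314 to 440, 476 to 1138 and 192 to 273 CPM. All 16 leukocyte and all 8 fibroblast markers had more than 3 counts in at least 1 mouse. The squamous epithelium markers summed to 7.18 to 8.56, 28.2 to 76.8 and 10.8 to 12.7 CPM, with Krt5, Trp63 and Krt1 never above 3 counts and Krt6a and Trp63 at 0 in all naive WT mice. Ocln was low in the WT CAC mice in which these 3 lists were high. Smooth muscle markers were 1975 to 3993, 1037 to 2964 and 939 to 1454 CPM, endothelial markers 40.0 to 52.7, 46.7 to 61.3 and 26.2 to 29.2 CPM, and neuron and glia markers 38.6 to 60.2, 31.0 to 45.9 and 13 to 19.1 CPM. Mitochondrial genes took 2.86% to 3.50% of counts in naive WT, 3.54% to 4.69% in WT CAC and 4.57% to 5.76% in Cldn2TG CAC mice. The part of these shifts in the differences of the members was not tested.

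**Figure D4:**
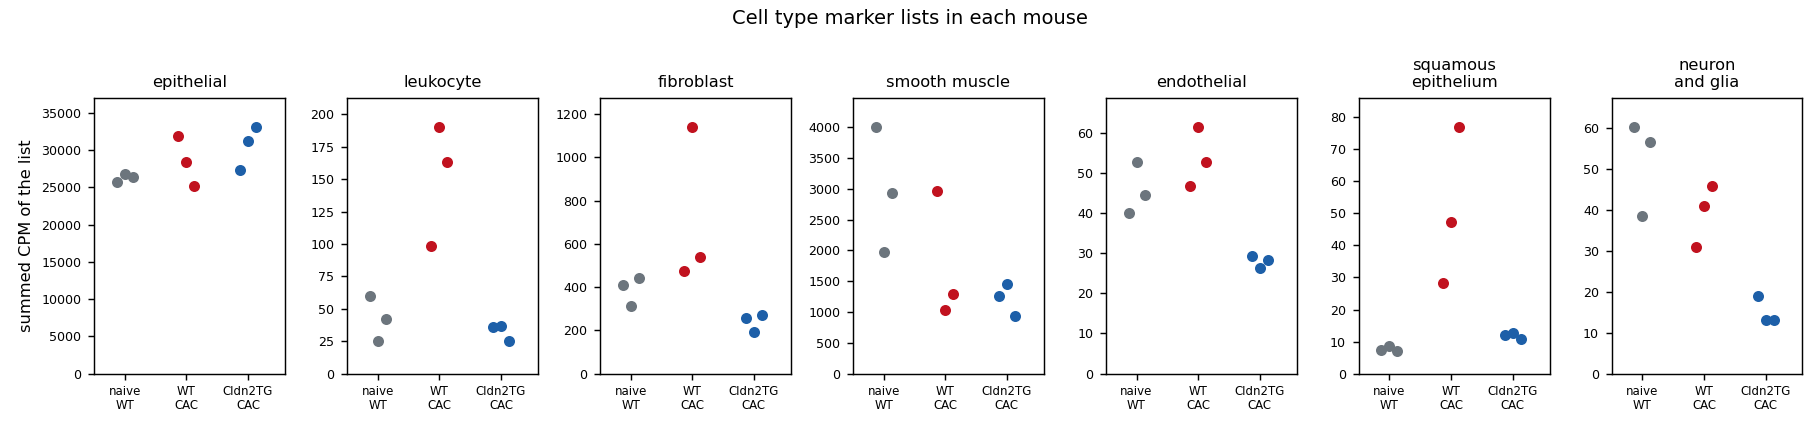
Summed CPM (y axis, from 0, with its own scale in each panel) of 7 cell type marker lists in each of 9 mice (points). Epithelial sums lie between 25229 and 33038 CPM in all mice, while the leukocyte, fibroblast and squamous sums of the WT CAC mice lie above those of all other mice.

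By the likeness of their pattern over the 9 mice, Ocln, Cgn and Cdh1, the members with the widest spread of log2 CPM (SD 0.38, 0.26 and 0.23), were set beside all genes with a mean of at least 10 CPM. The nearest to Ocln were Rasef, with a root-mean-square difference of 0.089 in mean-centred log2 CPM, Ugt2b34 (0.093) and Spata2 (0.096). Rasef was at 116 ± 11.9, 72.9 ± 9.39 and 123 ± 8.63 CPM in naive WT, WT CAC and Cldn2TG CAC mice (SD, n = 3). The nearest to Cgn were Hipk1 (0.063), Myo5c (0.079) and Tnfrsf21 (0.083), and the nearest to Cdh1 were Lasp1 (0.055), Nfe2l1 (0.064) and Usp47 (0.070). Among the members themselves, Marveld2 was nearest to Cdh1 (0.12), Tjp3 was nearest to Cgn (0.16) and Cgn was nearest to Ocln (0.25).

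The other genes of these junctions were taken from fixed lists. In WT CAC against naive WT colon, 5 of 30 other tight junction genes tested were called, all lower, beside 15% of all genes called and 6.92% called lower. They were Prkci and Pard3 of the PAR polarity complex, the angulin Ildr1, the ZO-1-associated factor Ybx3 and the scaffold Magi3. Ildr1 recruits tricellulin to the corners between cells, and it was at 269, 240 and 245 CPM in naive WT, 138, 182 and 144 CPM in WT CAC and 210, 188 and 212 CPM in Cldn2TG CAC mice. Its log2 fold change was -0.70 (SE 0.14, adjusted p = 0.0196) from naive WT to WT CAC and 0.39 (SE 0.14, adjusted p = 0.134) from WT CAC to Cldn2TG CAC colon. Prkci differed by -0.50 (SE 0.09, adjusted p = 0.0183) in the first comparison and by 0.26 (SE 0.11, adjusted p = 0.207) in the second. The calls of Prkci, Ildr1, Ybx3 (adjusted p = 0.0353) and Pard3 (adjusted p = 0.0406) were each lost in at least 3 of the 6 fits that left out a mouse. Magi3 differed by -0.47 (SE 0.13, adjusted p = 0.0483), and its call was not followed through these fits.

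Of 27 other adherens junction genes tested in the same comparison, 1 rose and 1 fell, a smaller share than the 15% of all genes called. Ajuba, a LIM protein that binds α-catenin at adherens junctions, was at 3.53, 4.16 and 2.36 CPM in naive WT, 6.03, 14.4 and 31.1 CPM in WT CAC and 3.24, 3.82 and 5.05 CPM in Cldn2TG CAC mice. It was higher in each WT CAC mouse than in any other mouse, with a log2 fold change of 2.36 from naive WT (SE 0.58, adjusted p = 0.0385) and of -2.09 from WT CAC to Cldn2TG CAC colon (SE 0.56, adjusted p = 0.0646). The summed squamous epithelium markers of the same WT CAC mice 4, 5 and 6 were 28.2, 47.3 and 76.8 CPM, in the same order as Ajuba, and their part was not tested. Ctnnd2, which encodes δ-catenin and is expressed mainly by neurons, had 14 to 20 counts in naive WT and 5 to 7 in WT CAC mice (log2 fold change -1.31, adjusted p = 0.0493). Of the 8 neuron and glia markers, 7 were lower in the same comparison, 3 of them called, and their part was not tested. The Ajuba call held in 1 of the 6 fits that left out a mouse and that of Ctnnd2 in 0, and limma voom called 0 of the 27 genes where DESeq2 called 3 and 8 had an unadjusted p under 0.05 in edgeR.

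In Cldn2TG CAC against WT CAC colon, 3 of the 30 were called, all lower, beside 9.54% of all genes called and 7.35% called lower, of which Jam2 (-1.53, adjusted p = 0.0299) and Esam (-1.31, adjusted p = 0.0353) encode adhesion proteins of endothelial junctions, and Tiam1 (-0.93, adjusted p = 0.0269) a Rac activator. Of 24 other adherens junction genes tested, 3 were called, all lower, and both counts are near these shares. Among them were Cdh5 (-1.77, adjusted p = 0.0180), the cadherin of endothelial cells, and Cdh11 (-1.68, adjusted p = 0.0118), a cadherin of mesenchymal cells. Endothelial and fibroblast marker sums were lower in the same mice, as given above, and their part was not tested. The third gene, Ctnnal1, differed by -0.62 (adjusted p = 0.0297). Each of these 6 calls was lost on leaving out at least 2 of the 6 mice in turn. Among the 9 members and the 30 tight junction genes of the list, which holds no claudins, Ocln alone was called higher in Cldn2TG CAC than in WT CAC colon. Over all genes tested 2.19% were called higher there, and this count is near that share.

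In Cldn2TG CAC against naive WT colon, 1 of the 30 tight junction genes tested was called higher and 5 lower, beside 3.92% and 6.07% of all genes (10% in either direction). The adhesion genes Jam2, Jam3 and Esam differed by -1.40 (adjusted p = 0.0102), -1.23 (adjusted p = 0.0385) and -0.98 (adjusted p = 0.0478). Crb3, a polarity protein of the apical membrane, differed by 0.35 (adjusted p = 0.0407), a call that was lost whichever of the 6 mice was left out and in 4 of the 10 alternatives with every mouse. Of 27 other adherens junction genes 5 were called, all lower, beside the same 6.07%, with Cdh5 at -1.69 (adjusted p = 0.00322), Vcl, which encodes the actin linker vinculin, at -0.57 (adjusted p = 0.00959), Cdh2, the N-cadherin of neural and mesenchymal cells, at -2.29 (adjusted p = 0.0126) and Pkp4 at -0.44 (adjusted p = 0.0139). All 8 endothelial markers were lower as well and 4 called, all 7 smooth muscle markers were lower and 3 called at a median of -1.40, and all 8 neuron and glia markers were called lower. Of 8 fibroblast markers 6 were lower, 2 of them called, and 2 were higher, at a median of -0.87. Of 13 leukocyte markers tested edgeR and limma voom called 0, DESeq2 called 1 and 2 had an unadjusted p under 0.05 in edgeR, and the 4 squamous epithelium markers tested had positive values with a median of 0.85. Their part in these differences was not tested. Leaving out single mice ended the calls of Jam3, Esam and Cdh2 in 4, 5 and 1 of 6 fits, and those of Jam2, Cdh5, Vcl and Pkp4 held in each. Of the 10 alternatives with every mouse, 3 ended the call of Jam3, 2 that of Esam and 1 each those of Vcl and Pkp4 (adjusted p up to 0.114 and 0.141). The median log2 fold changes of the tight junction list were 0.03, -0.06 and -0.10 and those of the adherens junction list -0.09, -0.02 and -0.12 in the 3 comparisons.

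**Figure D5:**
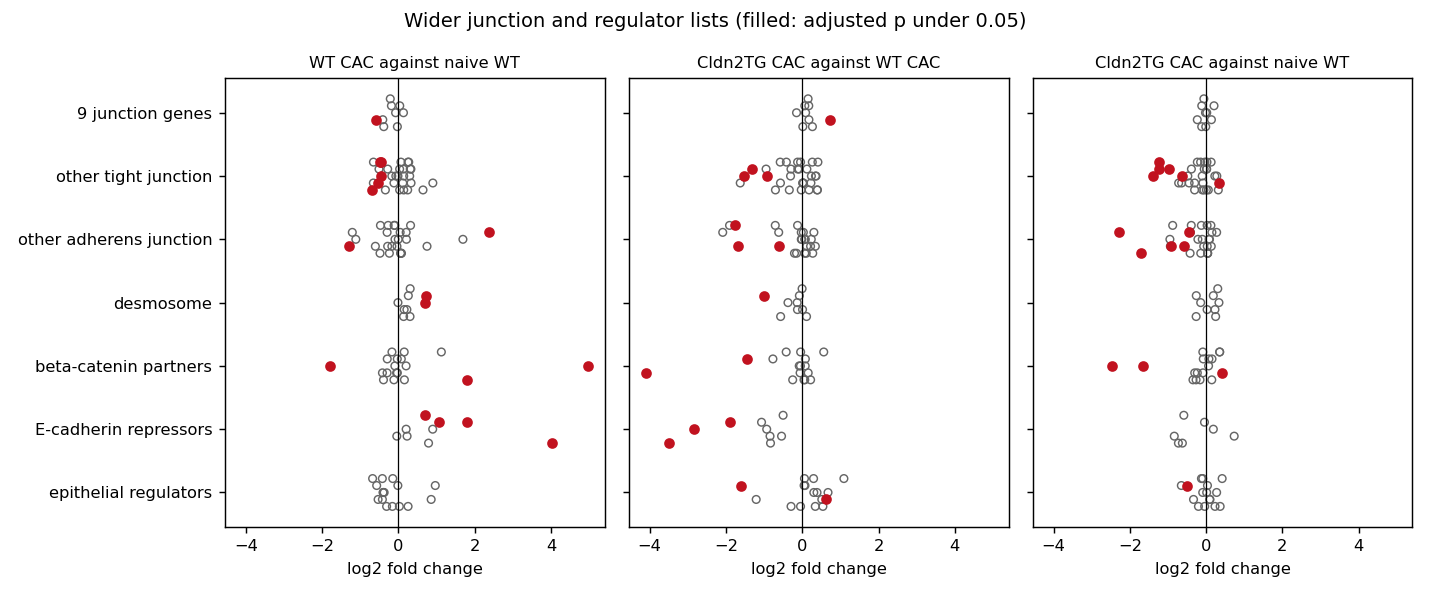
Log2 fold changes (x axis) of the 9 junction genes and of 6 wider lists (rows) in the 3 comparisons, 1 point a gene tested, filled where the adjusted p was under 0.05 in edgeR's quasi-likelihood test. Among the 9 genes only Ocln is filled, at -0.60 and 0.73. The fitted values of genes with few counts, such as Lef1 and Foxc2 at the far ends of the axis, depend on the prior count.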

How the data were processed

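Colon RNA of 9 mice was sequenced in 18 lane runs. According to the submitters' processing notes the reads were mapped to GRCm38 with HISAT2 and counted on genes with featureCounts of Subread, whereas the published methods name TopHat2 as the mapper. Versions, annotation and strand setting are not given in the sources used here. The authors deposited raw, whole-number counts for 47729 genes, and all 18 columns were used. The lanes were added up to 9 libraries of 14142711 to 22262546 counts.

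Groups came from the genotype and treatment labels. Symbols came from GENCODE M21 for 47224 genes, and 505 have none here. Exon lengths are those of the table. Each comparison was fitted on the 6 mice of its 2 groups with edgeR 4.0.16 in R 4.3.3 (TMM, filterByExpr with a minimum count of 10, robust quasi-likelihood fit, two-sided test, Benjamini-Hochberg over all genes tested), and a gene at an adjusted p under 0.05 is called. CPM values use TMM factors over all 9 mice. Log2 levels relative to markers used a prior count of 2. Ratios and relative levels had two-sided exact permutation tests over mice. At 3 counts a gene stood at 0.135 to 0.212 CPM before TMM scaling. Such limits cover counting error only.

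The members and the lists were chosen with earlier results of these data known. All 9 members are named. Of each other junction or regulator list at most 4 called genes per comparison are named, by lowest adjusted p, or, where none was called, the 2 largest log2 fold changes. Cldn2 is named as the targeted gene and Magi3, outside this rule, after its values were seen. Marker lists are given as sums. Alternatives were DESeq2 1.42.0, limma 3.58.1 (voom), other scalings and filters, all 9 mice in 1 fit, each lane alone and leaving out each mouse. The scripts were tested on simulated data.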

Additional observations from a re-analysis of the deposited data

How the results depend on the processing

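Of the 432 log2 fold changes of the 9 members under the alternatives, 398 kept their direction and their side of the threshold, 9 lost the call (all of them Ocln with 1 mouse left out, which also took the number of called members from 1 to 0) and 25 turned sign, none of a called value. With library size alone Cldn2TG CAC against WT CAC gave -0.0094 for Tjp1, -0.036 for Tjp3 and -0.083 for Marveld3, and Cldn2TG CAC against naive WT gave -0.093 for Tjp1, where that scaling shifted the median of all genes to -0.093 and -0.111 from 0.0085 and 0.0023. Marveld3 against WT CAC was -0.017 with upper-quartile factors and -0.0051 with at least 10 counts in every mouse. With lane 2 alone Marveld2 was -0.0086 against WT CAC, and Tjp1 was -0.046 and Marveld3 0.00091 against naive WT. Leaving out mice moved Tjp1 from -0.27 to 0.027, F11r from -0.066 to 0.18 and Marveld3 from -0.11 to 0.065 in WT CAC against naive WT, Tjp1 from -0.0088 to 0.28 and Marveld3 from -0.066 to 0.089 in Cldn2TG CAC against WT CAC, and Tjp1 from -0.080 to 0.091, Marveld3 from -0.10 to 0.088, Ctnnb1 from -0.047 to 0.027 and Cldn2 from -0.15 to 0.055 in Cldn2TG CAC against naive WT. The number of called genes was 2310 in WT CAC against naive WT (135 without mouse 2 to 4080 without mouse 4), 1421 in Cldn2TG CAC against WT CAC (908 with at least 10 counts in every mouse, 2136 with all 9 mice in the fit, 58 without mouse 8 to 2894 without mouse 4) and 1501 in Cldn2TG CAC against naive WT (2567 without a filter, 445 with all 9 mice, 525 without mouse 3 to 1383 without mouse 7). Relative to Epcam alone, 6, 3 and 4 members did not overlap in place of 2, 1 and 0, and leaving out mice gave 2 to 5, 1 to 4 and 0 to 6. With a mouse left out, 3 mice stand against 2, which separate more easily, and no background share was computed. Of the ratios, 0 with lane 1 and 2 with lane 2 separated Cldn2TG CAC from naive WT mice in place of 1, and 1 to 3 did on leaving out a mouse. The causes of these shifts were not tested. Of 41 calls of the genes named from lists, 21 held in every alternative with all mice and 5 on leaving out each mouse in turn (Apc2, Cdh5, Jam2, Pkp4 and Vcl in Cldn2TG CAC against naive WT), and none turned sign. No paired analysis was possible because the groups share no replicate numbers. At 3 mice a group the 95% intervals of the 3 log2 differences of Tjp1, F11r and Ctnnb1 together ran from -0.48 to 0.55.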

Other observations

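Beyond the junction proteins, some genes that work with β-catenin differed between the groups. Lef1, a transcriptional partner of β-catenin, had 3 to 8 counts in the naive WT mice, 78 to 235 in the WT CAC mice and 5 to 10 in the Cldn2TG CAC mice, without overlap between WT CAC and either other group (adjusted p = 0.00776 and 0.0103). Tcf7, of the same family, was at 5.72, 5.56 and 6.53 CPM in naive WT, 13.5, 17.9 and 30.5 CPM in WT CAC and 7.59, 7.04 and 8.12 CPM in Cldn2TG CAC mice. It rose by 1.80 on the log2 scale in WT CAC colon (SE 0.30, adjusted p = 0.0138) and was lower in Cldn2TG CAC than in WT CAC colon, at a log2 fold change of -1.44 (SE 0.29, adjusted p = 0.0196). On leaving out a mouse the calls of Lef1 held in 5 and 4 of 6 fits and those of Tcf7 in 3 and 3 (adjusted p up to 0.0682 and 0.0974). Both genes are also expressed by T cells, and leukocyte markers were highest in the WT CAC mice, and their part was not tested. Tcf7l2, the family member of colonic epithelium, was at 87.2 ± 5.19 CPM in naive WT, 99.8 ± 19.5 CPM in WT CAC and 116 ± 13.5 CPM in Cldn2TG CAC colon (SD, n = 3). It differed by 0.20 (adjusted p = 0.375) and 0.22 (adjusted p = 0.499) in the first 2 comparisons, and it was called higher in Cldn2TG CAC than in naive WT colon, by 0.42 (SE 0.11, adjusted p = 0.0325) without overlap, a call that held in 1 of 6 fits that left out a mouse. Of 18 partners tested 2 rose and 1, Apc2, fell (-1.78, adjusted p = 0.0444, held in 1 of 6 fits that left out a mouse) in WT CAC against naive WT colon, beside 15% of all genes called, and 2 of 16 tested were called in Cldn2TG CAC against WT CAC colon, both lower, beside 9.54%. Of 17 tested in Cldn2TG CAC against naive WT colon 3 were called, beside 10% of all genes, of which Apc2 (-2.47, adjusted p = 0.00881) and Pygo1 (-1.67, adjusted p = 0.0456) were lower. These 3 counts are near the shares of all genes. All 8 neuron and glia markers were called lower in the last comparison, and naive mouse 2 had the lowest naive level of Apc2 (1.05 CPM) and of their sum (38.6 CPM), and their part was not tested. The Pygo1 call was lost whichever of the 6 mice was left out and in 2 of 7 alternatives with every mouse. Ctnnb1 itself passed the test in none.

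Of 9 tested genes from a list of possible direct or indirect repressors of E-cadherin, 4 (Zeb2, Foxc2, Snai3 and Tcf3) were called in WT CAC against naive WT colon, all higher. In Cldn2TG CAC against WT CAC colon 3 of them (Zeb2, Foxc2 and Snai2) were called, all lower. Over all genes tested, 8.04% were called higher in the first and 7.35% lower in the second. Zeb2 was at 3.33, 2.85 and 3.91 CPM in naive WT, 6.39, 8.07 and 6.66 CPM in WT CAC and 2.42, 1.51 and 1.76 CPM in Cldn2TG CAC mice, with adjusted p of 0.0237 and 0.00863 in these comparisons. Foxc2 had 3 to 4, 12 to 67 and 2 to 5 counts in the 3 groups, and Snai2 had 7 to 20, 13 to 42 and 1 to 4 counts (adjusted p = 0.256 and 0.0222). Snai3 was at 1.05 ± 0.395, 3.70 ± 0.918 and 1.76 ± 0.762 CPM (SD, n = 3), with adjusted p of 0.0211 and 0.123. Tcf3, the most abundant of these 5, was at 58.9 ± 3.31, 94.7 ± 19.4 and 66.9 ± 9.70 CPM (SD, n = 3), a log2 fold change of 0.69 (adjusted p = 0.0267) and then of -0.50 (adjusted p = 0.116). Each of these 7 calls was lost on leaving out at least 2 of the 6 mice in turn. Fibroblasts and leukocytes, whose markers were highest in the same mice, also express Zeb2. The part of these cells was not tested. In Cldn2TG CAC against naive WT colon 0 of 7 tested genes of this list were called by edgeR, by DESeq2 or by limma voom, and 2 had an unadjusted p under 0.05. Zeb2 differed by -0.83 (adjusted p = 0.0758) and Snai3 by 0.74 (adjusted p = 0.281) there.

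Among 16 epithelial regulators, Hnf4a was at 967, 943 and 833 CPM in naive WT, 597, 758 and 532 CPM in WT CAC and 969, 943 and 1017 CPM in Cldn2TG CAC mice. Its log2 fold changes were -0.53 (SE 0.16, adjusted p = 0.0567) and 0.63 (SE 0.16, adjusted p = 0.0406). Grhl3, a grainyhead-like factor, went the other way, at 3.95 ± 0.127, 7.71 ± 3.48 and 2.53 ± 0.919 CPM (SD, n = 3), and differed by 0.97 (SE 0.34, adjusted p = 0.0919) and then by -1.61 (SE 0.40, adjusted p = 0.0408). Hnf4a and Grhl3 were the 2 of 16 regulators called in Cldn2TG CAC against WT CAC colon, near the 9.54% of all genes called, and their calls held in 2 and 1 of 6 fits that left out a mouse. Klf5 was the 1 regulator of 16 called in Cldn2TG CAC against naive WT colon, at -0.50 (SE 0.12, adjusted p = 0.0259), beside 10% of all genes called. Its call held in 2 of 6 fits that left out a mouse and in 9 of 10 alternatives with every mouse (adjusted p up to 0.202). No regulator was called by edgeR or limma voom in WT CAC against naive WT colon, where DESeq2 called 4 and 7 had an unadjusted p under 0.05 in edgeR, and Grhl1 differed by 0.86 (adjusted p = 0.147). Of 9 desmosome genes tested 2 were called in WT CAC against naive WT colon and 1 in Cldn2TG CAC against WT CAC colon, beside 15% and 9.54% of all genes. Pkp3 (0.71, SE 0.10, adjusted p = 0.00946) and Ppl (0.73, SE 0.15, adjusted p = 0.0205) rose in WT CAC colon, and Ppl was lower in Cldn2TG CAC than in WT CAC colon, at -0.995 (SE 0.18, adjusted p = 0.0136). On leaving out a mouse the call of Pkp3 held in 5 of 6 fits and each of Ppl in 2 of 6. Between Cldn2TG CAC and naive WT colon edgeR and limma voom called 0 of 9 desmosome genes where DESeq2 called 2 and 4 had an unadjusted p under 0.05 in edgeR, with Pkp3 at 0.34 (adjusted p = 0.0510) and Perp at 0.31 (adjusted p = 0.0563). Desmosome genes are also strong in squamous epithelium, whose markers were highest in the WT CAC mice, and the part of these cells was not tested.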
